A study of Mus musculus with 12 samples.

Results

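The 8 genes described here encode calprotectin (S100a8 and S100a9), the siderophore-binding lipocalin Lcn2, and proteins that neutrophils store in or release from their granules or that mark them: Ltf, Camp, Ngp, Chil1 and Chil3. They were chosen by name, as a family of myeloid defence proteins, with earlier results of these data known. They make up 8 of the 54532 genes listed for each sample. Their level was followed by RNA-seq of colon tissue in 12 libraries, 3 from each of 4 groups of male C57BL/6 mice. The study's methods do not name the part of the colon taken. The mice were 6 weeks old on arrival, and the study kept 8 in each group, of which 3 colons were sequenced.

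The Con group received no DSS. The DSS group drank 3% dextran sulfate sodium (DSS), a polymer that injures the colon epithelium and is widely used to model ulcerative colitis, for 5 days. The UA+DSS group was given ursolic acid (UA, a plant triterpenoid) by gavage at 200 mg/kg once a day from 1 day before DSS, for 7 days, and the DSS+UA group received the same dose from 3 days after the start of DSS, for 4 days. The labels call the Con and DSS mice untreated, whereas the study's methods give them the gavage vehicle. The lengths of UA treatment are those of the methods, and elsewhere the paper gives longer ones. Libraries are named by group and replicate number, so that DSS 2 is replicate 2 of the DSS group. Levels are given in CPM, the counts of a gene divided by the total of its library, scaled to 1e6 counts after TMM normalization.

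Calprotectin is a pair of small calcium-binding proteins that fills the neutrophil cytosol and withholds zinc and manganese from microbes, and its protein in stool is the usual laboratory sign of intestinal inflammation. Lipocalin 2 captures the iron-carrying siderophores of bacteria and is made both by neutrophils and by inflamed epithelium. Lactoferrin (Ltf), cathelicidin (Camp) and neutrophilic granule protein (Ngp) belong to the specific granules that neutrophils fill as they mature in the marrow, while Chil1 and Chil3 are chitinase-like proteins without enzyme activity that neutrophils and macrophages release. In RNA from a whole tissue, fewer cells of a type and less RNA per cell cannot be told apart.

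The libraries held 15566216 to 19498383 counts (median 18569669), and 17658 genes were tested. The epithelium markers were present throughout, at 6114 to 17298 CPM summed over 8 genes, as the label of colon tissue requires. The library DSS 3 also held 13342 CPM summed over 6 genes of the exocrine pancreas, against 87.5 CPM in DSS 1 and 31.2 CPM in DSS 2. The Hox genes of the rectal end minus those of the caecal end, here a position score in log2 units, ran from -5.70 to -4.16 in the UA+DSS group, from 0.37 to 3.10 in the DSS group, from 4.11 to 5.06 in the DSS+UA group and from -3.03 to 5.53 in the Con group. The position score of the UA+DSS libraries thus lay below that of every DSS and DSS+UA library, and the calls with this score in the fit are given with the comparisons of the groups. Nothing says whether the 3 colons of a group shared a cage or a day.

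The 8 genes lie on 4 chromosomes of GRCm38. S100a8 (ENSMUSG00000056054, chr3:90668978-90670035, plus strand) and S100a9 (ENSMUSG00000056071, chr3:90692632-90695721, minus strand) are close neighbours, and Chil3 (ENSMUSG00000040809, chr3:106147554-106167564, minus strand) lies further along the same chromosome. Ltf (ENSMUSG00000032496, chr9:111019271-111042767, plus strand), Camp (ENSMUSG00000038357, chr9:109847379-109849617, minus strand) and Ngp (ENSMUSG00000032484, chr9:110419747-110423012, plus strand) share a stretch of chromosome 9. Lcn2 (ENSMUSG00000026822) is at chr2:32384633-32388252 on the minus strand, and Chil1 (ENSMUSG00000064246) is at chr1:134182176-134190181 on the plus strand. No other annotated gene overlaps any of them. Of the 50-base stretches of the Chil3 transcripts, 26.9% also occur in Chil4 or Gm6522, so its counts are uncertain by the authors' treatment of shared reads, and Chil4 itself held 5 counts over the 12 libraries against 9806 for Chil3.

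Bases upstream of the start are shown for 4 of the 8 genes, each with a C/EBP motif in the stretch shown. The proteins of the C/EBP family are known to switch on granule genes as neutrophils mature. Whether the motif goes with the changes of the genes was not tested. The sequences are from RefSeq (GRCm38.p6), run 5′ to 3′ on the strand of the gene, and have the letters TTNNGNAA of a C/EBP motif in capitals, read on either strand. They begin 250 bases before the RefSeq start and cover chr3:90668821-90668977 for S100a8, chr3:90695722-90695971 for S100a9, chr9:110419558-110419746 for Ngp and chr3:106167565-106167814 for Chil3, with those of S100a8 and Ngp ending where the first annotated exon begins.
S100a8: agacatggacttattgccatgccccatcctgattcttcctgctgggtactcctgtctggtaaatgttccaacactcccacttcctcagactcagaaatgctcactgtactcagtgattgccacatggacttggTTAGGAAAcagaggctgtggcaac
S100a9: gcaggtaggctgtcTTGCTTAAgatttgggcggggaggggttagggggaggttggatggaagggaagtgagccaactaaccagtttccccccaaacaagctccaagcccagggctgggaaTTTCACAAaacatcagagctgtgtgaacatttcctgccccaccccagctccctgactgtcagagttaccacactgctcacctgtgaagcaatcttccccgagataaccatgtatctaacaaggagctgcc
Ngp: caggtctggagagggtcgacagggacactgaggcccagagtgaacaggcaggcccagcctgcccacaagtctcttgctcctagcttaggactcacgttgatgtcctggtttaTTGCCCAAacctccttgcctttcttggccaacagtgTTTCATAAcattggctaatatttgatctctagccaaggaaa
Chil3: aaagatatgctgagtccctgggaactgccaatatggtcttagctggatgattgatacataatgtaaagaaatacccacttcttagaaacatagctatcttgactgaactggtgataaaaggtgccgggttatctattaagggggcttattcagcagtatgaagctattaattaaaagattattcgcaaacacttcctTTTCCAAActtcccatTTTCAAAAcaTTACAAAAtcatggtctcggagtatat
The capitals start at position -117 of S100a8, at -236 and -130 of S100a9, at -138 and -102 of Ngp, and at -53, -37 and -27 of Chil3. In the 250 bases before the start, the motif was found in 7 of the 8 genes (all but Camp) and in 36.8% of 32851 mouse promoters. The letters GAGGAA of a PU.1 motif were found for S100a8, Lcn2 and Ltf and in 23.3% of promoters. The STAT letters TTCNNNGAA occurred in Chil3 alone of the 8 (7.02% of promoters), a kappaB motif in Chil1 alone (7.25%), and TATAAA in S100a8 alone (12.4%). These are matches of letters in a window, and binding was not measured here.

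The first comparison, of the DSS group with the Con group, asks what DSS colitis does to these genes in the colon. All 8 genes rose in the DSS group in edgeR's quasi-likelihood test (p adjusted by Benjamini and Hochberg over all 17658 genes and under 0.05, here a called gene), where 13.9% of all tested genes rose and 12.6% fell. None of the 8 overlapped between the 3 DSS and the 3 Con libraries, which was so of 41.3% of tested genes. The median log2 fold change was 10.69 over the 8 genes and -0.03 over all tested genes. At the level the filter on low counts asked for, 0.539 CPM, Lcn2 alone was above it in each Con library, so the other 7 entered the test through the groups in which they were higher.

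S100a9, one partner of calprotectin, had 0, 0 and 0.107 CPM in Con 1, Con 2 and Con 3, which is 2 counts in all. In the DSS group it stood at 250 CPM in DSS 1, 7509.6 CPM in DSS 2 and 325 CPM in DSS 3. The DSS libraries were thus all far above the control, and DSS 2 was far above the others. The log2 fold change was 15.95 (SE 2.33, adjusted p = 0.00269). Because so few control counts stand behind it, the ratio of the pooled counts of the groups, each divided by its summed library sizes, is given with its 95% counting interval, 75745 (20968 to 625454).

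S100a8, the other partner, had 0.155, 0.277 and 0 CPM in the Con libraries and 221, 6821 and 317 CPM in DSS 1, DSS 2 and DSS 3. Its libraries stood in the same order as those of S100a9 in the DSS group. The log2 fold change was 14 (SE 2.18, adjusted p = 0.00306), and the ratio of the pooled counts was 17236 (8747 to 39923). Without DSS 2, the ratios were 8011 (2217 to 66156) for S100a9 and 1871 (949 to 4335) for S100a8.

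Lcn2 had 15 to 20 counts in each Con library, at 0.983, 0.832 and 1.07 CPM and these hardly differed. In the DSS group it was at 80.4, 2147 and 143 CPM. The means were 790 ± 1176 and 0.961 ± 0.120 CPM (SD, n = 3), with a log2 fold change of 9.67 (SE 1.80, adjusted p = 0.00544). The ratio of the pooled counts was 822 (630 to 1094), and 114 (87.5 to 152) without DSS 2.

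Ngp, a cystatin-like protein of specific granules, gave 1 count in Con 1 and none in Con 2 or Con 3. It reached 13.95, 298 and 23.7 CPM in DSS 1, DSS 2 and DSS 3, a log2 fold change of 12.15 (SE 2.59, adjusted p = 0.00871). Its 6690 DSS counts thus stand against a single control count, and the ratio of the pooled counts, 6285, has a counting interval of 1128 to 248275. Without DSS 2 this ratio was 1042 (186 to 41202).

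Ltf, the iron-binding protein of the same granules, had a smaller fold change. It was at 0.0517, 0.277 and 0 CPM in the Con libraries and at 3.42, 36.6 and 5.81 CPM in the DSS libraries. The log2 fold change was 7.06 (SE 1.20, adjusted p = 0.00375), with a pooled ratio of 143 (65.4 to 390), or 42.6 (19.2 to 118) without DSS 2. Camp, the precursor of the cathelicidin peptide, was the least abundant of the 8 per kb of annotated exon in the DSS group. Its values were 0.155, 0.111 and 0.0535 CPM in the Con libraries and 0.433, 5.86 and 1.48 CPM in the DSS libraries, and its log2 fold change was 4.51 (SE 1.23, adjusted p = 0.0218). The call of Camp was lost without DSS 2 (adjusted p = 0.0809), Con 1 (0.0538), Con 2 (0.0703) or Con 3 (0.0668), and by limma-voom (0.0754).

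Chil1, the chitinase-like protein also known as YKL-40 or BRP-39, was level in the Con group at 0.414, 0.388 and 0.428 CPM. It was at 8.80 and 8.35 CPM in DSS 1 and DSS 3 but at 328 CPM in DSS 2. The log2 fold change was 8.11 (SE 1.78, adjusted p = 0.00971), falling to 4.36 without DSS 2, where it was still called. Chil3, or Ym1, was more even, at 52.4, 278 and 94.8 CPM in the DSS libraries against 0, 0.0555 and 0.0535 CPM in the Con libraries. Its log2 fold change of 11.70 (SE 1.88, adjusted p = 0.00332) was 10.75 without DSS 2, the smallest shift of the 8. Without DSS 2, 7 of the 8 were called, Camp being the exception, where 3484 of 18126 tested genes were. By limma-voom 5 of 8 were called, with Ngp (adjusted p = 0.0960) and Chil1 (0.128) lost beside Camp, where 4607 of 17658 tested genes were called.

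**Figure D1:**
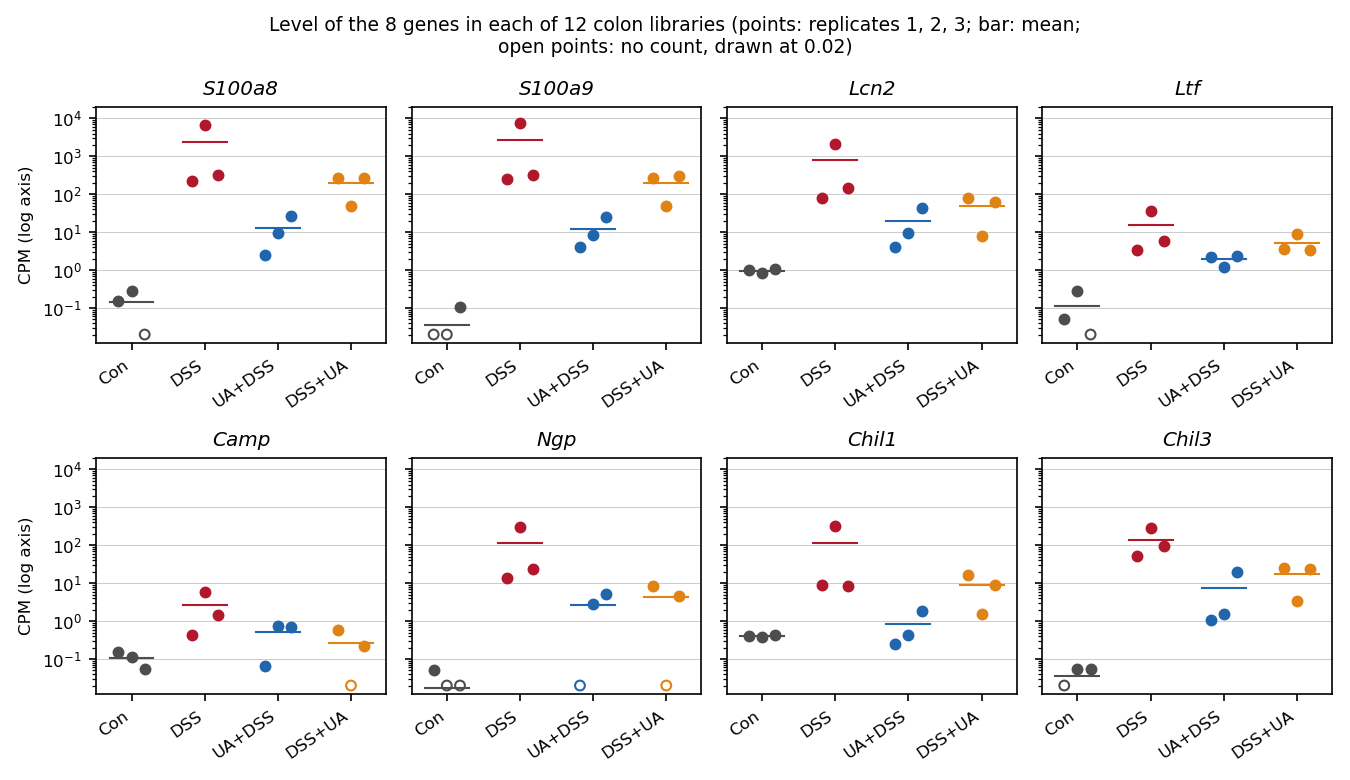
CPM of each of the 8 genes on a log axis, with 1 point per library, the 3 replicates of a group side by side and a bar at the group mean; open points had no count and are drawn at 0.02 CPM. In the DSS group replicate 2 is the highest for each of the 8 genes, reaching 7509.6 CPM for S100a9, and the Con points lie at or below 1.07 CPM.

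The genes were compared per kilobase of exon, taken as the union over all annotated transcripts of a gene. Which of these transcripts were expressed was not tested. The mean DSS level was 5163 CPM per kb for S100a9 and 3535 CPM per kb for S100a8, ahead of 301 CPM per kb for Lcn2. Ngp and Chil3 followed at 91.6 and 86.8 CPM per kb, then Chil1 at 41.0, Ltf at 4.43 and Camp at 3.42 CPM per kb. S100a9 was above S100a8 per kb in each DSS library, at 479 against 319, 14386 against 9829 and 623 against 457 CPM per kb. The order of Ngp and Chil3 turned with the library, since Ngp was lower in DSS 1 (11.4 against 32.1 CPM per kb) and DSS 3 (19.4 against 58.1) and higher in DSS 2 (244 against 170.1). In all, the 8 genes took 0.000180% to 0.000184% of the counts of a Con library, 0.0683% and 0.0946% in DSS 1 and DSS 3, and 1.83% in DSS 2.

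The library DSS 2 stood apart in these genes. Its CPM was 38.2 times the mean of DSS 1 and DSS 3 for Chil1, 26.1 times for S100a9, 25.3 times for S100a8, 19.2 times for Lcn2 and 15.9 times for Ngp. The excess was 7.94 times for Ltf, 6.13 times for Camp and 3.77 times for Chil3. Other neutrophil genes (18 tested, without the 8) were in excess by a median of 21.7 times, and other specific and gelatinase granule genes (11 tested) by 6.11 times. By their medians, macrophage markers (0.823 times), epithelium markers (0.723 times) and all tested genes (0.946 times) were not in excess in that library. Single macrophage markers ran from 0.163 to 17.0 times, however. Transcription factors and cytokines known to act on the 8 genes (18 tested) had a median of 1.59 times and ran from 0.215 to 42.8 times. Their sum was 5904 CPM in DSS 2 against 1310 and 1203 CPM in DSS 1 and DSS 3. The summed neutrophil genes were at 678 and 548 CPM in DSS 1 and DSS 3 and 8128 CPM in DSS 2, and their part in the results on the 8 genes was not tested. Of the counts of the DSS group, DSS 2 supplied from 65.8% (Chil3) to 95.05% (Chil1).

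**Figure D2:**
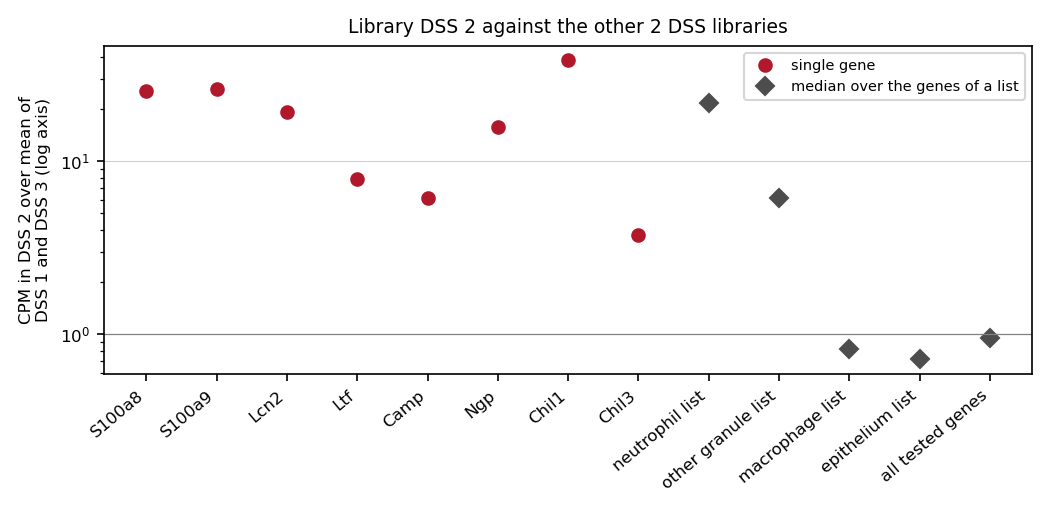
CPM in DSS 2 divided by the mean CPM of DSS 1 and DSS 3, on a log axis, for each of the 8 genes (circles) and as the median over the genes of 4 lists and over all tested genes (diamonds). Chil1 is highest at 38.2 and Chil3 lowest of the 8 at 3.77, while all tested genes sit at 0.946.

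The second comparison, of the UA+DSS group with the DSS group, asks what UA begun before DSS does. Of the 8 genes, 7 were lower in the UA+DSS group (adjusted p under 0.05), where 10.5% of tested genes fell and 8.21% rose. The same 7 did not overlap between the libraries of the groups, against 42.8% of tested genes, and Camp did. The median log2 fold change was -5.36, against -0.02 over all tested genes. How far these calls hold depends on the libraries and on the fit, as set out after the values.

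S100a8 was at 2.57, 9.50 and 26.9 CPM in UA+DSS 1, UA+DSS 2 and UA+DSS 3, and S100a9 at 4.04, 8.25 and 25.0 CPM. Each was below the lowest DSS library. S100a9 fell by 7.76 on the log2 scale (SE 1.59, adjusted p = 0.0141), with pooled counts 205 times lower (190 to 221). S100a8 fell by 7.56 (SE 1.63, adjusted p = 0.0157), or 178 times (165 to 192). Without DSS 2 these changes were -4.53 (adjusted p = 0.0225) and -4.37 (adjusted p = 0.0293). The pooled counts were then 21.7 times lower for S100a9 and 19.3 times lower for S100a8. Without UA+DSS 3 they were 438 and 405 times lower. The intervals cover counting error only and leave out the spread between mice.

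Lcn2 was at 3.98, 9.31 and 44.4 CPM in the UA+DSS libraries, UA+DSS 3 being the highest. It fell by 5.36 (SE 1.46, adjusted p = 0.0316), and its change was -2.53 (0.139) without DSS 2. Among the chitinase-like genes, Chil1 was at 0.257, 0.437 and 1.81 CPM, which takes in the Con level, and fell by 7.05 (SE 1.67, adjusted p = 0.0199). Chil3 was at 1.09, 1.56 and 19.99 CPM and fell by 4.22 (SE 1.16, adjusted p = 0.0324).

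Of the granule proteins, Ngp was at 2.81 and 5.21 CPM in UA+DSS 2 and UA+DSS 3 and had no count in UA+DSS 1, where 3 counts would have been 0.192 CPM. It fell by 5.37 (SE 1.64, adjusted p = 0.0447). Ltf was at 2.25, 1.19 and 2.29 CPM and fell by 2.997 (SE 0.91, adjusted p = 0.0431), so that its UA+DSS libraries were the most alike of the 8 genes. Camp was at 0.0642, 0.750 and 0.691 CPM against 0.433 to 5.86 CPM in the DSS group, with a log2 fold change of -2.34 (SE 1.04, adjusted p = 0.136).

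The 7 calls of this comparison were 3 without DSS 2 (S100a8, S100a9 and Chil1), 2 without UA+DSS 1, 4 without UA+DSS 3 and 0 without UA+DSS 2. Over all genes, 1936 of 18263 tested were called without UA+DSS 1 and 1390 of 18314 without UA+DSS 3. Without UA+DSS 2 the adjusted p of the 8 ran from 0.0751 to 0.229, the change of S100a9 was -7.52, and 183 of 18260 tested genes were called, against 1816 of 18126 without DSS 2. Without DSS 2 the change was -1.27 for Ltf, -2.80 for Ngp, -3.33 for Chil1 and -3.28 for Chil3. The calls were 6 without Con 1, Con 2 or Con 3, where Ngp was lost, and 5 without DSS+UA 1 or DSS+UA 3. Over all tested genes, 2866 to 4112 were called without a Con library, 3023 without DSS+UA 1 and 2437 without DSS+UA 3. With the position score as a covariate the 8 log2 fold changes were -7.62 to -2.51, and 0 of the 8 (and 3 of 17658 tested genes) were called.

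**Figure D3:**
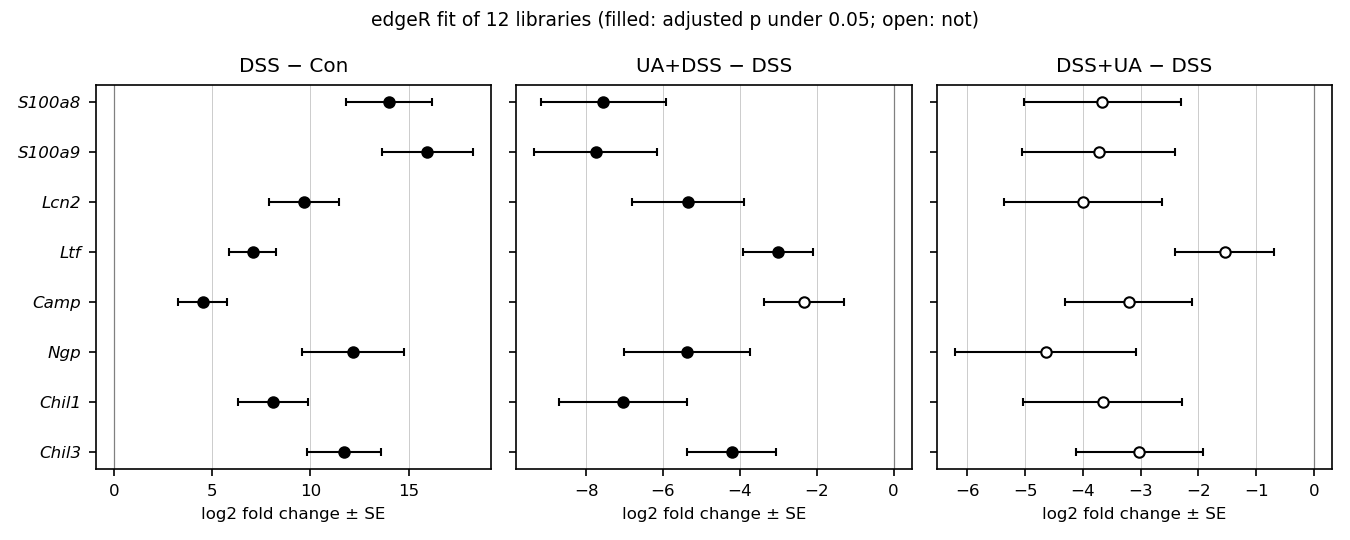
Fitted log2 fold change with its SE (bars) for each of the 8 genes in the DSS group against the Con group, the UA+DSS group against the DSS group and the DSS+UA group against the DSS group; filled points had an adjusted p under 0.05. The 8 points of the first panel are filled, 7 of the second and 0 of the third, and the horizontal scales differ between panels.

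The third comparison, of the DSS+UA group with the DSS group, asks what UA begun during DSS does. By edgeR 0 of the 8 genes were called, against 7.54% of tested genes (5% called lower), and 7 of the 8 had an unadjusted p under 0.05, against 29.9% of tested genes. DESeq2 called 3, namely Lcn2 (adjusted p = 0.0128), Camp (0.0273) and Chil1 (0.0344), and limma-voom 0. For S100a8 and S100a9 DESeq2 gave no adjusted p, so it could not call them. Of all 17658 tested genes DESeq2 called 3126 and limma-voom 1152. For 3 genes (Lcn2, Ngp and Chil3) each DSS+UA library was below each DSS library, against 34.7% of tested genes without overlap. The median log2 fold change was -3.66, against 0.02 over all tested genes.

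S100a8 was at 261, 48.8 and 271 CPM in the 3 DSS+UA libraries in order, and S100a9 at 262, 49.2 and 298 CPM. The first and the last of these libraries lay within the range of DSS 1 and DSS 3, and DSS+UA 2 below it. The log2 fold changes were -3.66 (SE 1.36, adjusted p = 0.106) for S100a8 and -3.73 (SE 1.32, adjusted p = 0.0941) for S100a9, and were -0.46 and -0.49 without DSS 2. Lcn2 was at 77.9, 7.73 and 62.2 CPM, and its change of -4.00 (adjusted p = 0.0872) was -1.16 without DSS 2.

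Ngp was at 8.58 CPM in DSS+UA 1, had no count in DSS+UA 2 and was at 4.71 CPM in DSS+UA 3. In DSS+UA 2 3 counts would have been 0.186 CPM. Its change was -4.65 (adjusted p = 0.0852), the furthest from 0 of the 8. Camp was at 0.579, 0 and 0.222 CPM, a change of -3.21 (adjusted p = 0.0861). Ltf had its highest value in DSS+UA 2 instead, at 3.63, 8.72 and 3.33 CPM, and changed by -1.55 (adjusted p = 0.246).

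Chil1 was at 16.7, 1.55 and 8.98 CPM, with a change of -3.66 (adjusted p = 0.109). Chil3 was at 25.6, 3.402 and 23.2 CPM, each below the lowest DSS library, with a change of -3.02 (adjusted p = 0.101). Without DSS 2 the changes of the 8 genes ran from -2.07 (Chil3) to 0.19 (Ltf), with Chil1 at 0.10, and the adjusted p from 0.327 to 0.959.

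**Figure D4:**
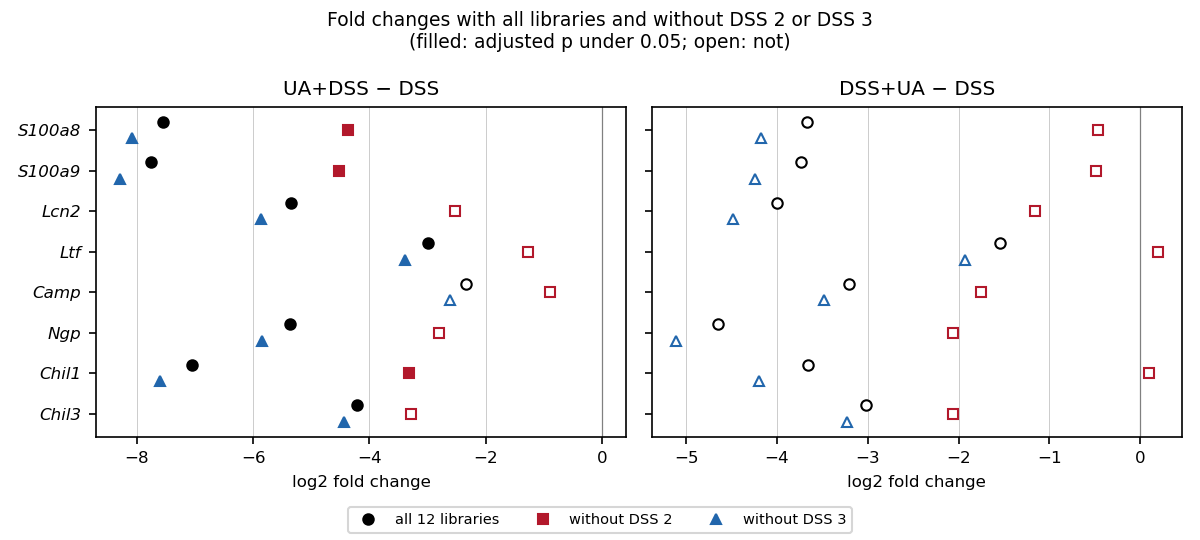
Fitted log2 fold change of each of the 8 genes against the DSS group with all 12 libraries (circles), without DSS 2 (squares) and without DSS 3 (triangles), for the UA+DSS group on the left and the DSS+UA group on the right; filled symbols had an adjusted p under 0.05. Without DSS 2 each of the points moves toward 0 or, for Ltf and Chil1 on the right, just past it, and S100a9 goes from -7.76 to -4.53 and from -3.73 to -0.49.

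Set against the Con group, the UA+DSS group had 0 of the 8 genes called, where 0.00566% of tested genes were, and 6 at an unadjusted p under 0.05 (12.1% of tested genes). DESeq2 called 3 (Lcn2, Ltf and Chil3) and limma-voom 0, where they called 376 and 0 of all 17658 tested genes. DESeq2 again gave no adjusted p for S100a8 and S100a9. For 5 genes (S100a8, S100a9, Lcn2, Chil3 and Ltf) each UA+DSS library was above each Con library, against 20.6% of tested genes without overlap. The ratio of the pooled counts was 370 for S100a9 (counting interval 102 to 3060), 232 for Chil3 (64.0 to 1926), 97.1 for S100a8 (49.0 to 226), 21.6 for Lcn2 (16.4 to 28.9) and 17.98 for Ltf (7.97 to 50.2). The edgeR adjusted p of these 5 lay between 0.238 and 0.330. Chil1 overlapped with the Con group, at 0.834 ± 0.848 against 0.410 ± 0.02004 CPM (SD, n = 3).

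In the DSS+UA group 5 of the 8 genes rose over the Con group, against 9.13% of tested genes. They were S100a9 (12.22, adjusted p = 0.00753), S100a8 (10.34, 0.00956), Chil3 (8.68, 0.0133), Ltf (5.51, 0.0128) and Lcn2 (5.67, 0.0324), with each log2 fold change followed by its adjusted p. Chil1 (4.45, adjusted p = 0.0784), Ngp (7.50, 0.0757) and Camp (1.30, 0.508) were not called. For 6 of the 8, all but Ngp and Camp, each DSS+UA library was above each Con library, against 38.9% of tested genes without overlap. Lcn2 was not called without DSS+UA 1 (adjusted p = 0.0727), DSS+UA 3 (0.0777) or any Con library (0.0768 to 0.0982), and Chil3 was not without Con 3 (0.0516), which left 3. Without DSS 2 there were 7, with Ngp (0.0455) and Chil1 (0.00874) added, and with the position score 2. Those fits called 4057 of 18126 and 2176 of 17658 tested genes.

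Between the UA groups, 0 of the 8 genes were called (16.8% of tested genes were), and 3 had an unadjusted p under 0.05 (33.8%). S100a9, S100a8 and Ltf were lower in each UA+DSS library than in each DSS+UA library, and 45.3% of tested genes did not overlap between these groups. The log2 difference, UA+DSS minus DSS+UA, was -4.03 for S100a9 (adjusted p = 0.0633), -3.89 for S100a8 (0.0758) and -3.39 for Chil1 (0.138). Without DSS 2 these were the 3 genes called (-4.04, adjusted p = 0.0138; -3.91, 0.02004; -3.43, 0.0198), and without DSS 1 S100a9 alone was called (0.0466). Those fits called 3609 of 18126 and 2636 of 18231 tested genes. For the other 5 of the 8 genes the difference lay between -1.45 and 0.87.

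The make-up of the family was compared within each library, which leaves depth and scaling aside. For every 100 counts of S100a9, S100a8 gave 88.6, 90.8 and 97.5 in the DSS libraries, 63.5, 115 and 108 in the UA+DSS libraries and 99.5, 99.2 and 90.9 in the DSS+UA libraries. The calprotectin partners thus kept a like proportion while S100a9 ranged from 4.04 to 7509.6 CPM over these libraries, and the value of 63.5 rests on 40 and 63 counts. Lcn2 gave 32.2, 28.6 and 43.9 in the DSS libraries and 29.8, 15.7 and 20.8 in the DSS+UA libraries, but 98.4, 113 and 178 in the UA+DSS libraries. In the UA+DSS group, then, Lcn2 counts were close to or above those of S100a9, and in the DSS and DSS+UA groups they were well below.

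Chil3 gave 21.0, 3.70 and 29.2 in the DSS libraries, the low value being DSS 2, and 27.0, 18.9 and 80.0 in the UA+DSS libraries. In the DSS+UA libraries it was lower and even, at 9.78, 6.92 and 7.77. Ngp gave 5.58, 3.97 and 7.28 in the DSS group, 0, 34.1 and 20.9 in the UA+DSS group and 3.28, 0 and 1.58 in the DSS+UA group, so that its zeros fell in UA+DSS 1 and DSS+UA 2. Ltf gave at most 1.79 in the DSS libraries, 9.15 to 55.6 in the UA+DSS libraries, and 17.7 in DSS+UA 2 against 1.39 and 1.11 in the other DSS+UA libraries.

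S100a8 and S100a9 together made up 74.7%, 82.2% and 69.9% of the 8 genes' counts in the DSS libraries and 79.7%, 82.1% and 84.7% in the DSS+UA libraries. The share was 46.4%, 52.5% and 41.1% in the UA+DSS libraries, without overlap with either. An exact permutation test gave p = 0.1 against each of these groups, the smallest value that 3 against 3 libraries allow. Groups of this size without overlap always give that value, so the test adds nothing to the ranges. For the DSS+UA group against the DSS group the exact permutation test gave p = 0.3. The UA+DSS libraries also lay below both groups in position score, and its part in the share was not tested. In the Con libraries, where the 8 genes held 32 to 35 counts in all, it was 6.25% to 14.3%, since Lcn2 and Chil1 supplied most of the counts.

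**Figure D5:**
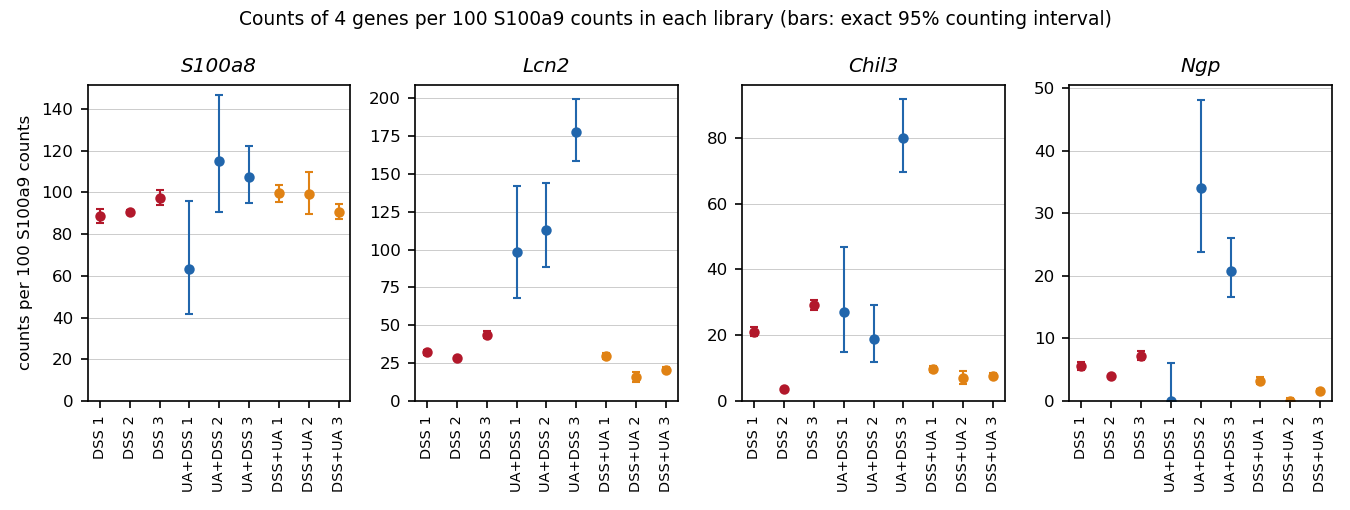
Counts of S100a8, Lcn2, Chil3 and Ngp for every 100 counts of S100a9 in each of the 9 libraries given DSS, with exact 95% counting intervals as bars. The S100a8 points lie between 63.5 and 115, whereas the Lcn2 points of the UA+DSS libraries (98.4 to 178) lie above those of the DSS and DSS+UA libraries (15.7 to 43.9).

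The genes nearest to each of the 8 were sought by the root mean square difference of centred log2 CPM over the 12 libraries, among tested genes with a mean log2 CPM of 1 or more. S100a8 and S100a9 were nearest to each other (0.72), followed for both by Retnlg, a resistin-like gene of neutrophils, and Cxcl2, a chemokine that draws neutrophils in. Lcn2 was nearest to Mmp8, the neutrophil collagenase (0.58), then Hp (haptoglobin, 0.80) and Ifitm6 (0.82). Mmp8 was at 24.4, 724 and 41.4 CPM in the DSS libraries and at 0.449, 1.19 and 4.998 CPM in the UA+DSS libraries, so it followed the order of Lcn2. Chil3 had Hp (0.85), Mmp8 (0.86) and Lcn2 (0.89) as its nearest, and Ngp had Lcn2 (1.17), Mmp8 (1.20) and Chil3 (1.61).

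Chil1 was nearest to Asprv1 (0.64), Hdc (0.66) and Osm (0.70). Hdc, the histamine-forming enzyme, was at 20.1, 887 and 17.0 CPM in the DSS libraries, also far higher in DSS 2. Ltf had other neighbours, the metalloreductase Steap4 (0.91), Socs3 (0.95), a target and brake of STAT3 signalling, and the interferon-induced Ifitm1 (1.05). Socs3 was at 216, 965 and 173 CPM in the DSS libraries and at 98.7, 116 and 100.3 CPM in the DSS+UA libraries, where DSS+UA 2 was the highest, as it was for Ltf. Camp, with few counts, was nearest to Angptl4 (0.68), Inhbb (0.69) and Smoc1 (0.75).

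Other neutrophil surface and cytosol genes were counted beside the 8. Of 20 listed, 18 were tested, and 17 rose in the DSS group, 18 fell in the UA+DSS group against the DSS group, and 3 fell in the DSS+UA group against the DSS group. The shares of all tested genes were 13.9%, 10.5% and 5%. The median log2 fold changes of the 18 were 8.66, -6.98 and -3.73. Cxcr2, the receptor for neutrophil chemokines, was at 138 ± 204 CPM in the DSS group against 1 count in the Con group, and fell by 7.69 in the UA+DSS group (adjusted p = 0.0101). The lectin receptors Clec4d and Clec4e rose by 7.78 and 12.51 in the DSS group. Without DSS 2 the counts were 17, 16 and 0, and with the position score 17, 0 and 0. Without UA+DSS 2 none of 19 was called in either comparison with the DSS group. Against the Con group, 0 of the 18 were called in the UA+DSS group, where 0.00566% of all tested genes were. With so few calls over all genes, this count does not show a return to the Con level. The median log2 fold change of the 18 was 2.003 there, and 15 of the 18 were higher than in the Con group. In the DSS+UA group 11 of the 18 rose over the Con group, against 9.13% of all tested genes. Of the 20, Cxcr1, Stfa2, Mrgpra2a and Mrgpra2b had no count in the Con group, and Mrgpra2a and Mrgpra2b none in the UA+DSS group.

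Ly6g, the surface marker by which mouse neutrophils are sorted, was the tested gene of that list not called in the first comparison, and is described with its values already seen. It was at 112, 8.26 and 11.6 CPM in the Con libraries, 287, 300.5 and 190 CPM in the DSS libraries, 14.8, 12.0 and 54.5 CPM in the UA+DSS libraries and 390, 274 and 311 CPM in the DSS+UA libraries. DSS 2 was hardly above DSS 1 for Ly6g, unlike for the 8 genes. Con 1, with 112 CPM of Ly6g, had no S100a9 count, so Ly6g is not taken here as a measure of neutrophils. The position score was 5.53 in Con 1 and 4.11 to 5.06 in the DSS+UA group, the libraries with the highest scores. Within the DSS and the DSS+UA groups the highest Ly6g value was not in the library with the highest score. Within the Con and the UA+DSS groups it was, in Con 1 and UA+DSS 3. The part of position in the Ly6g values was not tested. The log2 fold change was 2.55 in the DSS group against the Con group (adjusted p = 0.0636), -3.26 in the UA+DSS group against the DSS group (0.0391) and 0.33 in the DSS+UA group (0.829).

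Of 12 other specific and gelatinase granule genes, 11 were tested. In the DSS group 9 rose, in the UA+DSS group 8 fell against the DSS group, and in the DSS+UA group 3 fell. The shares of all tested genes were 13.9%, 10.5% and 5%. Slpi, an inhibitor of neutrophil elastase made also by epithelium, rose from 8.53 ± 0.651 to 322 ± 246 CPM in the DSS group (adjusted p = 0.00179) and was at 9.20 ± 4.10 CPM in the UA+DSS group (adjusted p = 0.00717 against the DSS group). In the DSS+UA group Slpi was at 266 ± 60.1 CPM, a log2 change of -0.27 (adjusted p = 0.774). Mmp9, the gelatinase, rose by 7.97 in the DSS group, and fell by 5.74 in the UA+DSS group and by 3.596 in the DSS+UA group (adjusted p = 0.0424) against the DSS group. Hp rose by 10.24 in the DSS group (adjusted p = 0.00306) and fell by 5.07 in the UA+DSS group. Without DSS 2 the counts of this list were 7, 5 and 1, with the position score 8, 0 and 0, and without UA+DSS 2 they were 8, 1 and 0.

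The primary granules, which are filled earlier in the marrow, gave little RNA. Of 6 genes listed, Prtn3 (proteinase 3) alone was tested, and rose to 1.33 ± 0.616 CPM in the DSS group from 0.110 ± 0.111 CPM (log2 fold change 3.55, adjusted p = 0.0117). Mpo had 19 counts, Ctsg 5 and Elane 3 in the whole DSS group.

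Relatives of the calprotectin and chitinase-like genes were counted too. Of 14 other S100 genes 10 were tested, of which 2 rose and 1 fell in the DSS group, where 13.9% of all tested genes rose and 12.6% fell. S100a11 rose by 1.77 (adjusted p = 0.00539), S100a16 rose by 0.84 (0.0493) and S100a1 fell by 0.98 (0.0237). In the UA+DSS group 4 of the 10 fell against the DSS group (0 with the position score, 0 without UA+DSS 2), and in the DSS+UA group 0 were called. Of all tested genes 8.21% rose and 10.5% fell in the former comparison, and 7.54% were called in the latter. Of 7 other chitinase genes 5 were tested. In the DSS group 0 rose and 1 fell, the acidic chitinase-like Chil6 (-3.02, adjusted p = 0.00945), while in the UA+DSS group 1 rose and 1 fell (0 called with the position score, without UA+DSS 2 or without DSS 2). Chit1, the chitotriosidase of macrophages, changed by 1.56 in the DSS group (adjusted p = 0.124).

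Receptors for these proteins were listed as well, and 12 of 14 were tested. In the DSS group 6 rose and 1 fell (13.9% and 12.6% of all tested genes). In the UA+DSS group 1 rose and 4 fell against the DSS group (8.21% and 10.5%), and in the DSS+UA group 3 fell (5%). With the position score the UA+DSS count was 0 and the DSS+UA count 2, without UA+DSS 2 they were 0 and 1, and without DSS 2 they were 4 and 1. Emb (embigin, a calprotectin receptor) rose by 3.89 in the DSS group (adjusted p = 0.00135). Lrp1, a receptor that takes up lactoferrin, rose by 1.44 (0.00167), and Il13ra2, a receptor that binds the Chil1 protein, rose by 3.55 (0.00871).

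Among 18 tested transcription factors and cytokines known to act on these genes, 12 rose and 2 fell in the DSS group. Of all tested genes 13.9% rose and 12.6% fell there. In the UA+DSS group 3 rose and 8 fell against the DSS group (8.21% and 10.5% of tested genes), and in the DSS+UA group 1 rose and 1 fell (7.54% called). Both comparisons had 0 called with the position score and 0 without UA+DSS 2, so the falls of Cebpb given next depend on the fit. Cebpb, a C/EBP factor, rose by 4.16 in the DSS group (adjusted p = 0.0025), and fell by 3.46 in the UA+DSS group (0.00997) and by 2.38 in the DSS+UA group (0.0352) against the DSS group. Stat3 rose by 1.503 (0.000868) and Il1b by 10.31 (0.00332) in the DSS group. Of the 11 tested genes for the handling of iron, zinc and manganese, 4 rose and 1 fell in the DSS group, against the same 13.9% and 12.6%. Slc11a1, a phagocyte exporter of iron and manganese, rose by 4.21, Mt1, a zinc-binding metallothionein, by 1.85, and Slc39a14, a zinc and iron importer, by 1.08.

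Markers of the other cells of the colon moved with the groups too. Of 14 macrophage and monocyte genes 10 rose in the DSS group, and in the UA+DSS group 1 rose and 7 fell against the DSS group (0 called with the position score or without UA+DSS 2, and 1 and 3 without DSS 2). Of all tested genes 13.9% rose and 12.6% fell in the DSS group, and 8.21% rose and 10.5% fell in the UA+DSS group. The macrophage sum was 867 to 1613 CPM in the DSS group, 179 to 364 CPM in the Con group, 297 to 601 CPM in the UA+DSS group and 277 to 904 CPM in the DSS+UA group. The summed neutrophil genes were at 20.5 to 134 CPM in the Con group, 39.7 to 98.5 CPM in the UA+DSS group and 398 to 657 CPM in the DSS+UA group. Ly6g alone was a large part of some of these sums. It gave 112 of 134 CPM in Con 1 and 54.5 of 98.5 CPM in UA+DSS 3, but 14.8 of 66.8 CPM in UA+DSS 1. In DSS+UA 1 it gave 390 of 657 CPM, and in DSS+UA 2 274 of 398 CPM. In DSS+UA 2, the library in which 7 of the 8 genes were lowest within that group, the neutrophil sum was also the lowest of the 3 (398 CPM) and the macrophage sum the highest (904 CPM). Of 8 epithelium markers 1 (Epcam) fell in the DSS group, 2 rose in the UA+DSS group and 2 rose in the DSS+UA group against the DSS group, with 0 of the 8 called in these 3 comparisons without DSS 2. With the position score the 2 calls of the UA+DSS group and the 2 of the DSS+UA group were also 0. The part of these cells in the results on the 8 genes was not tested.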

How the data were processed

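Total RNA of mouse colon was sequenced after a TruSeq RNA library kit, which does not mark strand. The study's methods state that reads were aligned to GRCm38 and that gene counts came from HISAT2. What the authors deposited are raw whole-number counts for each Ensembl gene. For the versions, the counter, the annotation and reads with several matches, no detail is given in the sources used here, and reads of a gene and of an antisense partner cannot be told apart. The submitters' processing notes also name FastQC and Cuffdiff. The labels name Trizol for the extraction and the methods a column kit. Groups and replicate numbers came from the sample labels.

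From these counts edgeR 4.0.16 (R 4.3.3) kept 17658 genes by filterByExpr, which hold 99.8% of the counts, scaled the libraries by TMM (factors 0.871 to 1.09) and fitted the 12 libraries in 1 robust quasi-likelihood model. Pairs of groups were tested with Benjamini-Hochberg adjustment over the 17658 genes at a threshold of 0.05. The steps were tested on simulated data. Fitted log2 fold changes of genes with few or no control counts depend on the prior count of the fit, so ratios of pooled counts, divided by the summed library sizes of the groups, are given with exact 95% intervals, which cover counting error only, as does the floor of 3 counts for a gene without counts. The 123 genes without a name hold 0.0297% of the counts and are not described. DESeq2 1.42.0 and limma 3.58.1 (voom) were among the 21 alternatives, beside other scalings, filters, a 2-group fit, the position score, a replicate block and each library left out.

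The 8 genes and all lists were chosen with earlier results of these data known. Besides the 8, the text names up to 3 tested genes of a list with the smallest adjusted p in the comparison of the DSS and Con groups, and for each of the 8 the 3 nearest genes. Genes named outside this rule (Mpo, Ctsg, Elane, Ly6g, Cxcr1, Stfa2, Mrgpra2a, Mrgpra2b) were named with their values seen.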

Additional observations from a re-analysis of the deposited data

How the results depend on the processing

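Fits of the 8 genes in 6 comparisons under 21 alternatives gave 848 values with the same direction and side of the threshold, 12 (S100a8 and S100a9 by DESeq2) with the same direction and no adjusted p, 74 that lost a call, 21 that gained one and 5 that reversed. With at least 10 counts in every sample only Lcn2 could be tested, so that 1 gene was called in the DSS group against the Con group, 1 in the UA+DSS group against the DSS group and 1 in the DSS+UA group against the Con group. By limma-voom the calls were 5 (DSS against Con), 4 (UA+DSS against DSS), 1 (DSS+UA against Con) and 2 (UA+DSS against DSS+UA). In the same order it called 4607, 3082, 2937 and 2868 of all 17658 tested genes. By DESeq2, which gave no adjusted p for S100a8 or S100a9, the calls were 4 (UA+DSS against DSS), 3 (DSS+UA against DSS), 3 (UA+DSS against Con) and 1 (UA+DSS against DSS+UA). In the same order it called 4497, 3126, 376 and 4349 of all 17658 tested genes. For the UA+DSS group against the DSS group there were 2 calls without a filter, 1 in a 2-group fit (S100a9) and 0 with the position score. Those fits called 2328 of 31891, 2072 of 16738 and 3 of 17658 tested genes. The 2-group fit called 3 of the 8 genes between the UA groups (4284 of 16386 tested genes). The position score left 2 calls in the DSS+UA group against the Con group (2176 of 17658 tested genes). With 1 library left out the calls ran from 7 to 8 (DSS against Con), 0 to 7 (UA+DSS against DSS), 0 to 0 (DSS+UA against DSS and UA+DSS against Con), 3 to 7 (DSS+UA against Con) and 0 to 3 (UA+DSS against DSS+UA). The direction reversed for Ltf (0.19) and Chil1 (0.10) in the DSS+UA group against the DSS group without DSS 2 (range with 1 library left out -2.17 to 0.19 and -4.43 to 0.10), for Chil1 in the UA+DSS group against the Con group without UA+DSS 3 (range -0.24 to 1.47), and between the UA groups for Chil3 (0.12) with the position score and Ngp without DSS+UA 1 (range -1.66 to 0.16). The cause was not tested.

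Replicate numbers do not pair the samples: the correlation of same-numbered libraries ran from -0.2156 to 0.1868 over 18 pairs, of which 5 were over 0.1. With a replicate block 3 of the 8 genes (S100a8, S100a9 and Chil3) were called in the UA+DSS group against the DSS group, where 3151 of 17658 tested genes were.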

Other observations

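Of 14 tested genes for defence made by the colon epithelium, 2 rose and 1 fell in the DSS group, where 13.9% of all tested genes rose and 12.6% fell: the serum amyloid Saa3 rose from 1.38 ± 1.11 to 1401 ± 1643 CPM (adjusted p = 0.00279), the nitric oxide synthase Nos2 from 1.36 ± 0.931 to 210 ± 323 CPM (0.0263), and Pigr, which carries IgA across the epithelium, fell from 4032 ± 388 to 1251 ± 529 CPM (0.00925). In the UA+DSS group 1 of the 14 rose and 1 fell against the DSS group (0 called with the position score or without UA+DSS 2), and in the DSS+UA group 0 were called. These p-values are from edgeR's quasi-likelihood test with n = 3 libraries a group.

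Of 7 tested eosinophil and mast cell genes, 4 rose and 1 fell in the DSS group (13.9% and 12.6% of all tested genes). Il5ra, the interleukin 5 receptor chain of eosinophils, rose from 0.244 ± 0.234 to 21.3 ± 14.9 CPM (adjusted p = 0.00346). The mast cell proteases Cpa3 and Mcpt2 rose by 5.62 and 5.40 on the log2 scale. Their counts were 72 (Cpa3) and 326 (Mcpt2) in the DSS group against 1 and 7 in the Con group. Summed over the 9 listed genes, the level was 52.6 to 95.3 CPM in the DSS group and 44.9 to 119 CPM in the Con group. Smooth muscle markers (6 tested) and red blood cell markers (5 tested) had 0 called in the comparisons with the DSS group and in the DSS group against the Con group by edgeR. Of 5 tested pancreas genes 4 were called higher in the DSS group, where their counts came from DSS 3.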
